A study of Bos taurus with 12 samples.

Results

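The mitochondrial respiratory chain is described here through the mRNAs of its nuclear-encoded subunits. Members were the genes of the mRNA table whose name begins with NDUFA, NDUFB, NDUFC, NDUFS, NDUFV, UQCR, ATP5, COX4, COX5, COX6, COX7 or COX8 or equals SDHA, SDHB, SDHC, SDHD or CYC1, with the NDUFAF assembly factors left out. They also needed a mean of at least 1 FPKM (fragments per kilobase of transcript and per 1e6 fragments, a level per length) over all 12 libraries. By name 88 of its 33714 genes matched, and 79 of these reached the minimum, among 11331 genes that did so in all. The members comprise 33 of complex I, 4 of complex II, 9 of complex III, 15 of complex IV and 18 of complex V. NDUFA4 and NDUFA4L2 are counted in complex IV. By their names the members also include factors that are not stable subunits, with 76 members besides them. These are COX7A2L, a supercomplex factor counted in complex IV, and ATP5IF1 and ATP5S, counted in complex V.

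The cells were intramuscular preadipocytes, the precursors of fat cells within muscle, from the longissimus dorsi of newborn Qinchuan cattle. Uninduced cells formed the 0 d group, and the 3 d, 6 d and 9 d groups were collected 3, 6 and 9 days after induction, with 3 libraries per day. Induction used dexamethasone, IBMX and insulin for 48 h, followed by medium with insulin. The comparisons of 3 d, 6 d and 9 d with 0 d share the same 0 d libraries. The 3 d libraries also enter the comparison of 6 d with 3 d, and the 6 d libraries that of 9 d with 6 d. A fall at 3 d and a rise from 3 d to 6 d are thus not independent results. The labels do not tell whether the replicates are separate cultures or animals, so that p-values measure the spread between these samples. FPKM hold no read counts, and the depth behind a single value is unknown; the reads behind the circRNA values of the same samples ranged from 53.3e6 to 77.33e6 per library.

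The respiratory chain sits in the inner mitochondrial membrane. Complexes I and II pass electrons from NADH and succinate to ubiquinone, complex III passes them on to cytochrome c and complex IV to oxygen, and complexes I, III and IV pump protons that drive ATP synthesis by complex V. Complex II is encoded by nuclear genes, whereas each other complex also holds subunits encoded by mitochondrial DNA.

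Expression levels spanned a wide range among the members. Mean FPKM over the 12 libraries ran from 1.04 to 882, with quartiles of 5.58, 9.99 and 33.1, beside a median of 11.7 over all 11331 genes at or above the minimum. Above 100 FPKM lay 9 members, and between 1 and 2 FPKM lay 7. The most abundant member was UQCRC1 at 882 FPKM in complex III, followed within their complexes by SDHC (525), ATP5MC3 (262) and COX8A (70.8). UQCRC1 made up 81.8% of the summed FPKM of complex III, and SDHC made up 67.1% of complex II. How reads shared with paralogues or pseudogenes were assigned is not stated, and their part in these levels, shares and sums was not tested.

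A daily mean of at least 1 FPKM was held on every day by 77 members. COX6A2 fell below it at 3 d and ATP5F1E at 3 d and 6 d, so that both passed the minimum through the other days. Just above the minimum over all libraries stood ATP5F1E at 1.04 FPKM, the epsilon subunit of the F1 part of complex V. Under the minimum were 9 name matches, of which NDUFA2 was nearest at 0.745 FPKM. The others were NDUFA1 at 0.472, ATP5ME at 0.193, NDUFA3 at 0.158, COX7ALP1 at 0.0475, NDUFA12 at 0.0392, COX8B at 0.0158, COX6B2 at 0.0125 and COX4I2 at 0.00500 FPKM. For COX7C, NDUFC1 and NDUFS7 the table joins the name with that of a second gene, so that their FPKM may hold reads of both. None of the 13 subunits encoded by mitochondrial DNA is listed in the table under the names searched (0 of 13), and they were not analysed here.

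Summed over their members, the complexes followed different courses. Complex I summed to 815, 823 and 894 FPKM at 0 d, 849.6, 909 and 863 at 3 d, 763, 774 and 782 at 6 d, then 719.9, 716 and 747 at 9 d. Complex II summed to 712, 645 and 708 FPKM at 0 d, 733, 745 and 756 at 3 d, 806, 832 and 858 at 6 d, then 842, 892 and 854 at 9 d. As deposited, all 9 d libraries were below all 0 d libraries for complex I and above them for complex II. Rescaled by the median ratio, complex I averaged 784 FPKM at 0 d and 766 at 9 d, with overlapping libraries, and complex II 639.9 and 909.6. Rescaled to equal sums, the means at 0 d and 9 d were 840.3 and 700.2 FPKM for complex I and 685 and 831 for complex II, with the days apart. The mean sums of complex III were 1179, 991, 1167 and 972 FPKM at 0 d, 3 d, 6 d and 9 d. For complex IV they were 268, 245, 266 and 258 FPKM, and for complex V 1219.8, 1103, 1185 and 1046 FPKM. Under each scaling complexes III and V were lowest on average at 3 d and 9 d, with the 0 d and 9 d libraries of both overlapping by the median ratio, while the means of complex IV stayed within a narrow band as deposited.

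**Figure D1:**
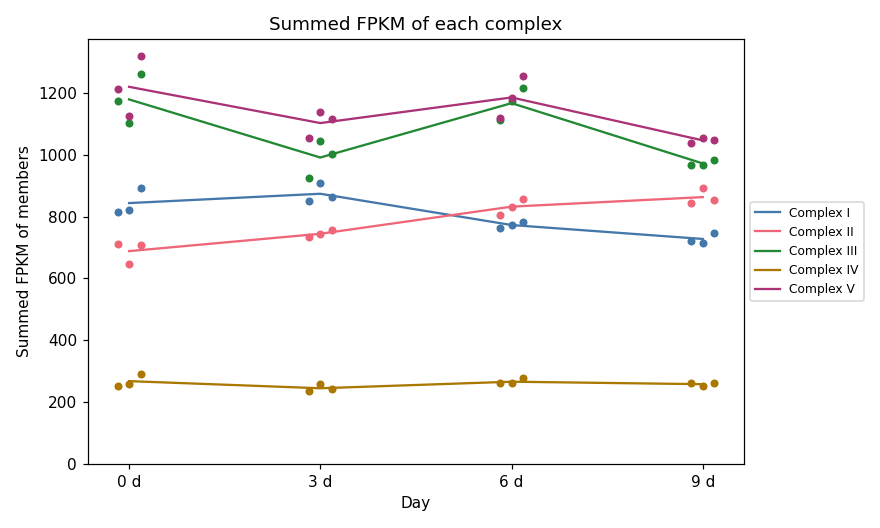
Summed FPKM of the members of each complex (vertical axis) by day (horizontal axis), with points for the 3 libraries of a day and lines through the daily means. Complex II rose on average from 688 to 863 FPKM between 0 d and 9 d (639.9 to 909.6 when rescaled by the median ratio), and complex I moved from 844 to 728 FPKM as deposited, but 784 to 766 when rescaled in this way.

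For the tests, log2(FPKM + 0.1) of the 15396 genes with a mean of at least 0.1 FPKM was fitted with limma, and p-values were adjusted over all of them by the Benjamini-Hochberg method. A gene is counted as higher or lower where the adjusted p lies under 0.05, and as called where its log2 fold change also lies beyond 1 in either direction. The added 0.1 makes fold changes of weakly expressed genes smaller than the ratio of their FPKM. Groups are said to be apart where every library of one day lies above every library of the other, as deposited unless a rescaling is named. All genes as a body shifted with the scaling: when libraries were rescaled by their median ratio, the median log2 fold change of all genes rose by 0.09 at 3 d, 0.14 at 6 d and 0.16 at 9 d against 0 d. Counts of the members are therefore also given with this rescaling and with a rescaling to equal sums, and for complexes and gene lists those counts are given that differ from the deposited scale. The genes tested reach down to 0.1 FPKM, whereas members start at 1 FPKM. Of the 11331 genes at 1 FPKM or more, 23.1% were higher and 32.5% lower at 3 d against 0 d. These shares were 11.1% and 26.5% at 6 d and 10.6% and 29.1% at 9 d. From 3 d to 6 d they were 24.7% and 28.8%, and from 6 d to 9 d 11.2% and 12.4%. Beside them each surplus of falls or rises given below as deposited is smaller.

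At 3 d most members that moved were lower than at 0 d. Of 79 members 9 were higher and 33 lower, whereas 21.7% of all genes tested were higher and 30.5% lower. As shares this is 11.4% and 41.8% of the members. The median log2 fold change was -0.21 for the members and -0.06 for all genes, a difference of -0.15 that was -0.14 under either rescaling. The members' own median was -0.12 by the median ratio and -0.14 by equal sums. Rescaled by the median ratio, 11 members were higher and 23 lower (13.9% and 29.1%, beside 25.4% and 27.4% of all genes), and rescaled to equal sums 9 and 28 (11.4% and 35.4%, beside 24.5% and 28.3%). Rises were thus scarcer than among all genes under each scaling, whereas the surplus of falls was small by the median ratio and turned without replicate 3 of 0 d, where 27.8% of the members and 29.1% of all genes were lower. Under all 3 scalings 9 members were higher and 23 lower. Calls numbered 1 upward (NDUFA4L2), against 8.06% of all genes, and 2 downward (NDUFA13 and COX6A2), against 15.2%. COX6A2 and ATP5F1E, both counted as lower, passed the minimum level through other days, a selection that favours a fall at 3 d. Among the 77 members at 1 FPKM or more on every day 9 were higher and 31 lower, with 1 called upward and 1 downward. Changes of more than 1 log2 unit were thus rarer among the members than among all genes, and most changes were small. Fewer cells of a type and less RNA per cell cannot be told apart in these bulk samples.

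Between 3 d and 6 d the direction turned, in a comparison that uses the same 3 d libraries as the one above. At 6 d 26 members were higher and 8 lower than at 3 d, beside 22.4% higher and 27.1% lower among all genes. Those 26 make up 32.9% of the members and the 8 make up 10.1%. The median was 0.15 for the members and -0.09 for all genes, and the difference of 0.24 became 0.25 by the median ratio and 0.23 by equal sums, with members' medians of 0.20 and 0.08. Splits after rescaling were 32 higher and 8 lower by the median ratio (40.5% and 10.1%, beside 24.3% and 24.6% of all genes) and 24 higher and 10 lower by equal sums (30.4% and 12.7%, beside 20.7% and 30.7%), and 24 and 8 members passed in the same direction under all 3 scalings. Called were 3 members upward (NDUFA13, COX6A2 and ATP5IF1), against 9.85% of all genes, and 0 by limma downward, against 9.24%, where 37 members of either direction had an unadjusted p under 0.05. Of the 77 members at 1 FPKM or more on every day, which leave out COX6A2, 25 were higher and 8 lower, with 2 called upward. The calls among all members dropped to 1 without replicate 3 of 3 d and to 1 without replicate 3 of 6 d. Without replicate 3 of 6 d 17 members were higher (21.5%, beside 20.1% of all genes).

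At 6 d the members stood closer to their 0 d levels. Higher than at 0 d were 4 members and lower were 14, beside 10.0% and 24.8% of all genes. As shares of the members these are 5.06% and 17.7%, both below the shares of all genes. Rescaling by the median ratio turned the balance to 11 higher and 5 lower (13.9% and 6.33%, beside 15.2% and 17.4% of all genes), and equal sums gave 5 and 13 (6.33% and 16.5%, beside 10.2% and 24.8%). The median of -0.08 as deposited was 0.07 by the median ratio, so that its sign depended on the scaling, while the members stood above all genes by 0.07 as deposited, 0.08 by the median ratio and 0.07 by equal sums, but by 0.0021 with no minimum level for the genes tested. Under all 3 scalings 4 members were higher (COX8A, NDUFA4L2, SDHC and SDHD) and 5 lower (COX5A, COX7A1, NDUFA4, NDUFB2 and SDHB). Only NDUFA4L2 was called upward, against 3.39% of all genes, and 0 by limma downward, against 7.97%, where 27 members of either direction had an unadjusted p under 0.05. The 14 lower members became 9 without replicate 1 of 0 d, 8 without replicate 3 of 0 d, 9 without replicate 1 of 6 d and 9 without replicate 2 of 6 d. Without replicate 1 of 0 d there were 2 calls.

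At 9 d 5 members were higher and 28 lower than at 0 d, beside 9.70% and 27.2% of all genes. The shares of the members were 6.33% and 35.4%. Rescaling by the median ratio left 7 higher and 9 lower (8.86% and 11.4%, beside 15.4% and 17.0% of all genes), and equal sums gave 5 and 33 (6.33% and 41.8%, beside 8.82% and 31.0%). Falls were thus more frequent than among all genes on 2 of the 3 scalings and less frequent by the median ratio. The median was -0.17 for the members and -0.19 for all genes, and it came to -0.00 and -0.03 by the median ratio. The members lay 0.03 above all genes under both and 0.02 above them by equal sums, but the sign turned with a constant of 1 (-0.04), with no minimum level (-0.07) and without replicate 1 of 0 d (-0.02), replicate 2 of 0 d (-0.04) or replicate 3 of 9 d (-0.01). Under all 3 scalings 5 members were higher (COX8A, NDUFA4L2, SDHC, SDHD and UQCRH) and 9 lower (ATP5F1B, ATP5S, COX7C, NDUFA4, NDUFA5, NDUFB2, NDUFV1, UQCRB and UQCRC2). NDUFA4L2 alone was called upward, against 3.41% of all genes, and 0 by limma downward, against 7.47%, where 36 members of either direction had an unadjusted p under 0.05. Without replicate 3 of 0 d 18 members were lower (22.8%, beside 24.4% of all genes).

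From 6 d to 9 d 0 members were higher by limma and 13 lower, beside 10.0% and 10.7% of all genes, and 20 had an unadjusted p under 0.05. The 13 make up 16.5% of the members. By the median ratio 2 were higher and 11 lower (2.53% and 13.9%, beside 11.1% and 9.45% of all genes), by equal sums 0 and 17 (21.5% lower, beside 14.1%), and under all 3 scalings 0 and 11. The median was -0.10 for the members and -0.04 for all genes, or -0.07 and -0.01 by the median ratio and -0.16 and -0.08 by equal sums. Calls numbered 0 upward and 0 downward by limma, against 2.54% and 1.89% of all genes. The total of 13 became 8 without replicate 2 of 6 d, 6 without replicate 3 of 6 d, 7 without replicate 1 of 9 d, 8 without replicate 2 of 9 d and 7 without replicate 3 of 9 d. Without replicate 3 of 6 d, and likewise without replicate 2 of 9 d, 1 of these members was higher. The surplus of falls over all genes turned without replicate 3 of 6 d (5 of 79 members lower against 1231 of 15396 genes) and without replicate 3 of 9 d (8.86% against 8.92%).

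**Figure D2:**
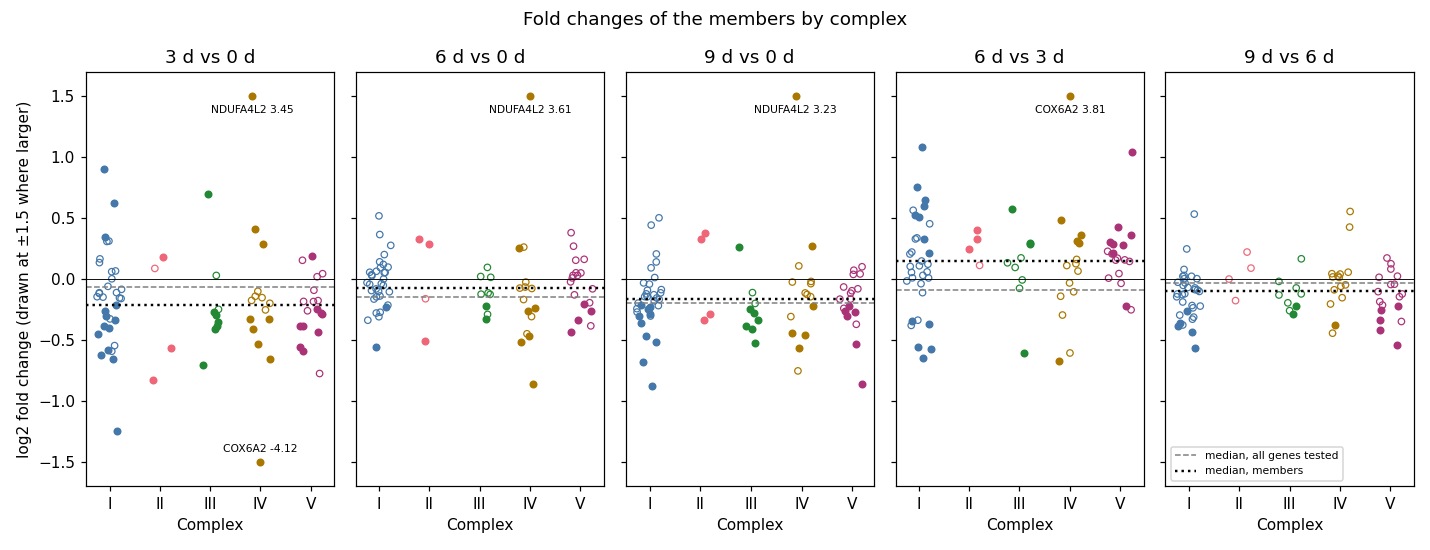
Log2 fold change of each member (vertical axis, points beyond 1.5 drawn at that value and named) by complex (horizontal axis) in the 5 comparisons, filled where the adjusted p lies under 0.05 by limma; dashed lines are the medians of all genes tested and dotted lines those of the members. At 3 d the members' median of -0.21 lies under that of all genes (-0.06), and from 3 d to 6 d it lies above it (0.15 against -0.09); the members' median at 6 d against 0 d changes sign to 0.07 when libraries are rescaled by their median ratio.

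The lowest daily mean fell on 3 d for 41 of the 79 members (51.9%, against 32.0% of all genes tested) and on 9 d for 22 (27.8%, against 29.1%). By the median ratio 47 members were lowest at 3 d (59.5%, against 33.0%), and by equal sums 26 were lowest at 3 d (32.9%, against 27.5%) and 40 at 9 d (50.6%, against 35.6%). A highest mean at 3 d was held by 14 members (17.7%, against 37.1% of all genes), 11 by the median ratio and 16 by equal sums. Peaks at 3 d, common among all genes, were thus less frequent among the members under each scaling. These are counts of means without a test.

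**Figure D3:**
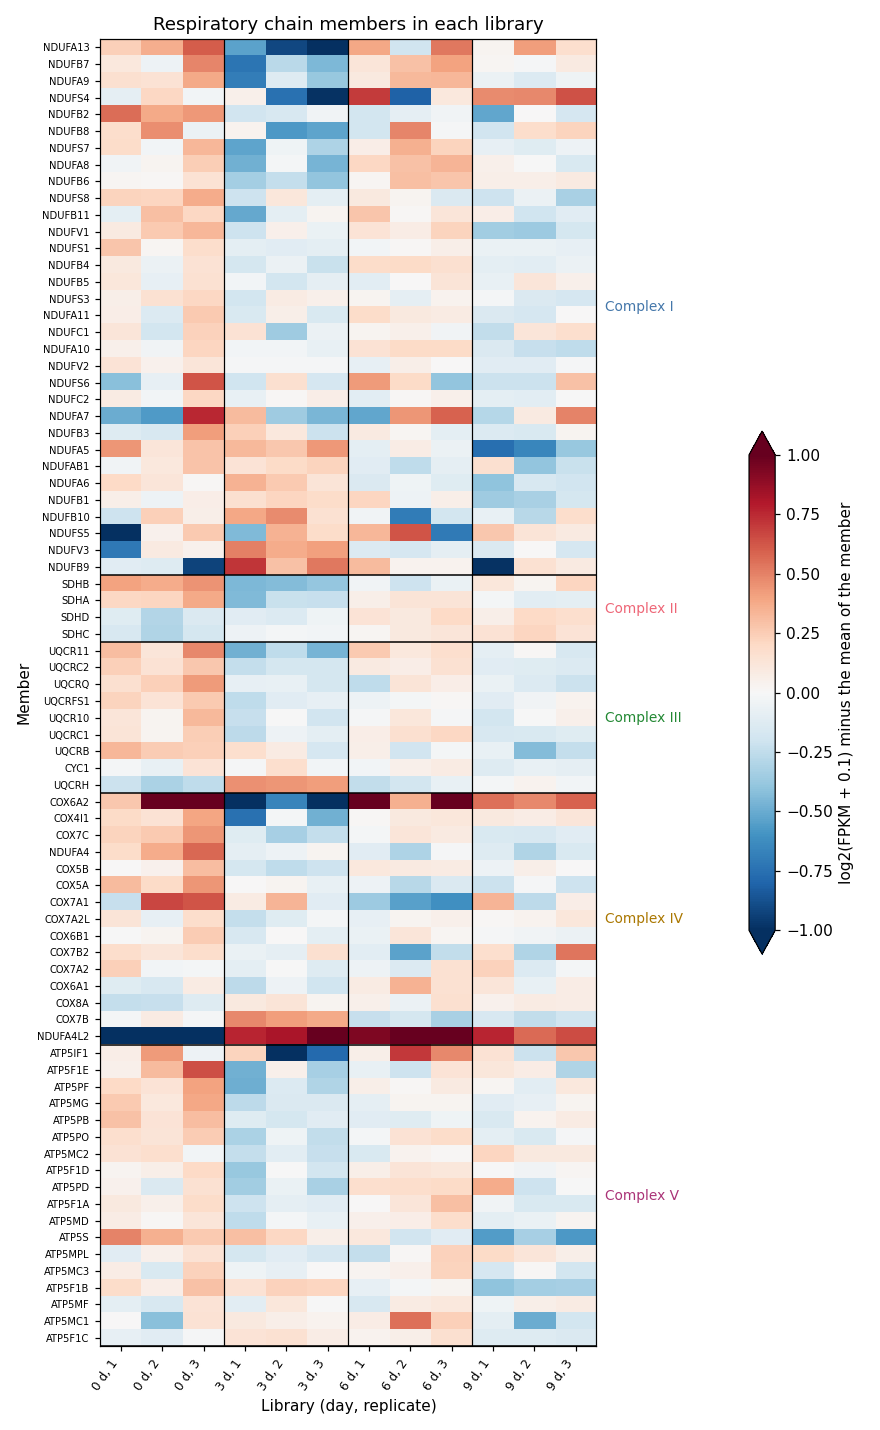
Members (vertical axis, 1 of the 79 is not drawn) in the 12 libraries (horizontal axis), coloured by log2(FPKM + 0.1) minus the member's mean over all libraries, as deposited, and ordered within each complex by the fold change at 3 d. Many members are blue (below their mean) in the 3 d libraries, where the lowest daily mean fell for 41 of 79 (26 of 79 when rescaled to equal sums), while NDUFA4L2 is blue at 0 d alone.

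Complex I, the NADH dehydrogenase, had 3 members higher and 11 lower at 3 d than at 0 d, of 33 (9.09% and 33.3%, beside 21.7% and 30.5% of all genes tested), with a median of -0.15 (-0.06 by the median ratio, -0.08 by equal sums). Differences between a complex and all genes were not tested. The 11 became 6 without replicate 3 of 0 d and 7 without replicate 1 of 3 d, and the split was 4 and 6 by the median ratio and 3 and 9 by equal sums. From 3 d to 6 d 8 rose and 5 fell (24.2% and 15.2%, beside 22.4% and 27.1% of all genes; 10 and 5 by the median ratio, 7 and 6 by equal sums); the 5 became 3 without replicate 1 of 3 d, replicate 3 of 3 d, replicate 1 of 6 d or replicate 2 of 6 d. Complex I at 6 d had 0 higher by limma and 2 lower than at 0 d (6.06%, beside 24.8% of all genes), where 5 had an unadjusted p under 0.05. By the median ratio this split was 3 and 1. Without replicate 2 of 0 d 4 were lower, and without replicate 1 of 6 d 1 was higher. At 9 d 0 were higher by limma and 10 lower than at 0 d (30.3%, beside 27.2% of all genes), or 3 lower by the median ratio and 14 by equal sums, and 12 had an unadjusted p under 0.05. Of the 7 nuclear-encoded core subunits, most carry the flavin or iron-sulfur clusters or line the ubiquinone site. At 3 d 1 of the 7 was higher and 4 were lower (14.3% and 57.1%, beside 21.7% and 30.5% of all genes). Those 4 became 1 without replicate 3 of 0 d, 1 without replicate 1 of 3 d, 1 by the median ratio and 3 by equal sums. Among the core subunits NDUFV1, which binds the flavin, fell by 0.52 on the log2 scale at 9 d (adjusted p = 0.00161 by limma), from 20.7, 23.4 and 24.5 FPKM to 15.3, 15.1 and 17.2.

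NDUFA13, an accessory subunit also known as GRIM19, read 5.48, 5.99 and 7.10 FPKM at 0 d, 3.16, 2.42 and 2.12 at 3 d, 6.07, 4.02 and 6.72 at 6 d, then 4.72, 6.21 and 5.22 at 9 d. Its log2 fold change at 3 d was -1.25 (95% interval -1.72 to -0.78, adjusted p = 6.1e-04 by limma), and from 3 d to 6 d it rose by 1.08 (adjusted p = 0.00176). The 3 d libraries lay below all others, and the other 3 days overlapped. The second change lay under 1 at 0.96 without replicate 3 of 3 d and at 0.94 without replicate 3 of 6 d, and remained past the adjusted p in both.

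NDUFB2, an accessory subunit of the membrane arm, was lower on every induced day: 23.4, 20.6 and 21.4 FPKM at 0 d, 13.8, 14.1 and 15.4 at 3 d, 13.9, 14.9 and 15.5 at 6 d, then 11.0, 15.9 and 14.1 at 9 d. Its log2 fold changes were -0.59, -0.56 and -0.68, with adjusted p of 0.00238, 0.00541 and 0.00167 by limma. All 0 d libraries lay above the rest, and the induced days overlapped. NDUFA5, an accessory subunit of the arm that protrudes into the matrix, declined late: 10.7, 8.57 and 9.61 FPKM at 0 d, 9.87, 9.51 and 10.7 at 3 d, 7.36, 8.28 and 7.55 at 6 d, then 4.63, 4.98 and 6.04 at 9 d. At 9 d it fell by 0.88 against 0 d (adjusted p = 2.5e-04 by limma) and by 0.57 against 6 d (adjusted p = 0.00653). The 9 d libraries were below all others. NDUFA5 was also lower at 6 d than at 3 d (-0.37), which did not pass without replicate 3 of 3 d (-0.32), replicate 1 of 6 d (-0.34) or replicate 3 of 6 d (-0.35).

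NDUFB9, an accessory subunit of the membrane arm, had the largest rise of complex I at 3 d, from 5.09, 5.04 and 2.85 to 9.09, 6.78 and 7.98 FPKM. Its log2 fold change of 0.90 (adjusted p = 0.0346 by limma) leaned on single libraries: it did not pass without replicate 3 of 0 d (0.63), replicate 1 of 3 d (0.80) or replicate 3 of 3 d (0.89), nor with a replicate block. The 3 d values lay above the 0 d values, which were themselves spread. NDUFB10, also of the membrane arm, was at 1.79, 1.91 and 1.51 FPKM at 3 d and 1.31, 0.790 and 1.17 at 6 d. Its fall of -0.65 between them (adjusted p = 0.0208 by limma) did not pass without replicate 1 of 3 d (-0.62), replicate 2 of 3 d (-0.58) or replicate 2 of 6 d (-0.45), although no libraries of these days overlapped.

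Complex II, succinate dehydrogenase, split between its catalytic and its anchoring subunits. SDHA, the flavoprotein that oxidises succinate, was at 38.1, 38.5 and 43.1 FPKM at 0 d, 24.3, 28.3 and 28.1 at 3 d, 34.5, 36.1 and 36.1 at 6 d, then 32.7, 30.8 and 30.8 at 9 d. SDHB, the iron-sulfur subunit that hands on the electrons, was at 3.63, 3.54 and 3.74, 1.96, 1.98 and 2.05, 2.65, 2.34 and 2.59 and 2.94, 2.77 and 3.17 FPKM on the same days. Both were lowest at 3 d and stayed under every 0 d library on each later day as deposited, while by the median ratio SDHA overlapped with 0 d at 6 d and SDHB at 9 d. At 3 d SDHA fell by 0.57 (95% interval -0.74 to -0.40, adjusted p = 1.2e-04 by limma) and SDHB by 0.83 (-1.01 to -0.65, adjusted p = 1.1e-05). From 3 d to 6 d SDHA rose by 0.40 (adjusted p = 0.00142 by limma) and SDHB by 0.32 (adjusted p = 0.0073). SDHB remained lower at 6 d (-0.51, adjusted p = 7.4e-04 by limma). Their values at 9 d against 0 d (-0.34 and -0.29) passed as deposited and not by the median ratio (-0.16 and -0.11), and that of SDHB did not pass without replicate 3 of 0 d (-0.27) or replicate 2 of 9 d (-0.24), nor in the fit of only the 6 libraries compared.

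SDHC and SDHD, the membrane anchors that hold the ubiquinone site, moved up instead. SDHC read 468, 424 and 462 FPKM at 0 d, 503, 516 and 513 at 3 d, 528, 559 and 568 at 6 d, then 578, 607 and 574 at 9 d. It rose by 0.18, 0.29 and 0.38 at 3 d, 6 d and 9 d against 0 d, with adjusted p of 0.0127, 0.00137 and 2.6e-04 by limma. Each day's libraries were apart from those of the day before as deposited, but the steps from 3 d to 6 d (0.11, adjusted p = 0.0941 by limma) and from 6 d to 9 d (0.09, adjusted p = 0.27) did not pass, and rescaled to equal sums these days overlapped. SDHD read 202, 179.6 and 198 FPKM at 0 d, 203, 199 and 213 at 3 d, 241, 235 and 252 at 6 d, then 229, 252 and 246 at 9 d. Its log2 fold change was 0.09 at 3 d (adjusted p = 0.268 by limma, not passed) and 0.33 at 6 d and 0.33 at 9 d (adjusted p = 0.00201 and 0.00204). For SDHD the 0 d and 3 d libraries overlapped as deposited, though not under either rescaling, and lay below those of 6 d and 9 d, except that 3 d and 9 d overlapped by equal sums. In counts complex II had 1 higher and 2 lower of 4 at 3 d (2 and 2 by the median ratio), 3 higher and 0 lower by limma from 3 d to 6 d (3 with an unadjusted p under 0.05; 4 and 0 by the median ratio), and 2 and 2 at 9 d against 0 d, which became 2 and 0 by the median ratio. The 2 lower at 9 d became 1 without replicate 3 of 0 d and 1 without replicate 2 of 9 d. Complex II at 6 d had 2 higher and 1 lower than at 0 d under each scaling.

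**Figure D4:**
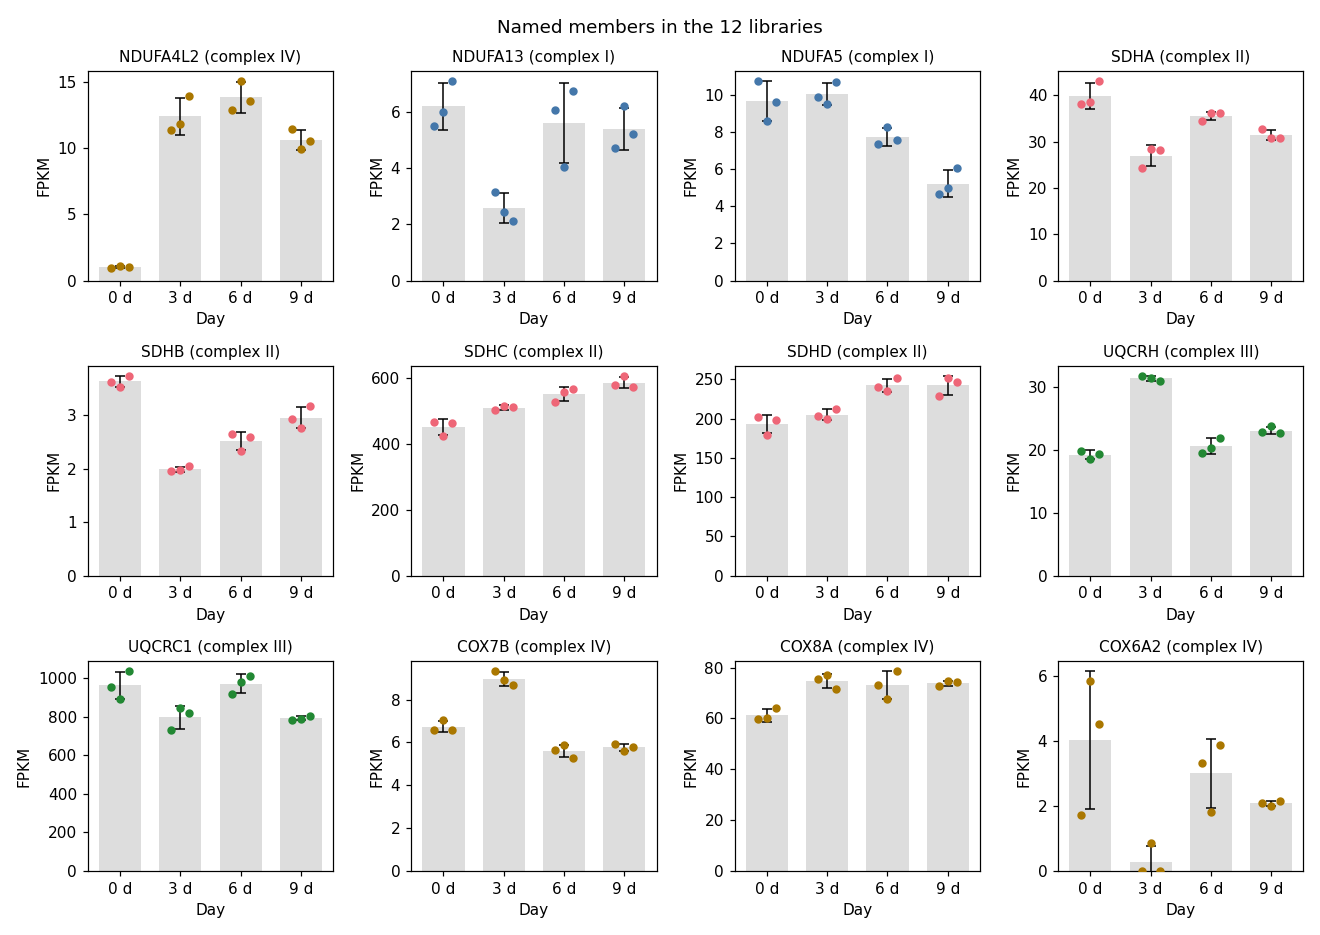
FPKM (vertical axes, each with its own scale) of 12 members by day, with points for the 3 libraries, grey bars for their mean and error bars for 1 SD. NDUFA4L2 is near 1 FPKM at 0 d and above 9 on all later days, SDHA and SDHB are lowest at 3 d while SDHC is lowest at 0 d, and COX6A2 is at 0 in 2 of the 3 libraries of 3 d.

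Complex III, which passes electrons from ubiquinol to cytochrome c, had 1 member higher and 6 lower of 9 at 3 d. These are 11.1% and 66.7%, beside 21.7% and 30.5% of all genes. The split was 1 and 5 under either rescaling, and the median was -0.30 (-0.21 by the median ratio, -0.23 by equal sums). From 3 d to 6 d 3 rose and 1 fell (33.3% and 11.1%, beside 22.4% and 27.1% of all genes), or 4 and 1 by the median ratio. Complex III at 6 d had 0 higher by limma and 2 lower than at 0 d, where 4 had an unadjusted p under 0.05. The 2 are 22.2%, beside 10.0% higher and 24.8% lower among all genes. By the median ratio this split was 1 and 0, and by equal sums 0 and 1. The 2 became 0 without replicate 1 or 3 of 0 d or replicate 1 of 6 d. They became 1 without replicate 2 of 0 d, replicate 2 of 3 d, replicate 2 or 3 of 6 d or replicate 3 of 9 d. At 9 d 1 was higher and 6 lower than at 0 d (11.1% and 66.7%, beside 9.70% and 27.2% of all genes). The split was 1 and 2 by the median ratio, and the 6 became 3 without replicate 3 of 0 d. UQCRH, the hinge protein that helps bind cytochrome c1 to cytochrome c, was the member that rose at 3 d. It read 19.9, 18.6 and 19.4 FPKM at 0 d, 31.8, 31.4 and 31.0 at 3 d, 19.5, 20.4 and 22.0 at 6 d, then 22.8, 23.8 and 22.7 at 9 d. The rise of 0.70 at 3 d (95% interval 0.57 to 0.83, adjusted p = 4.3e-06 by limma) was followed by a fall of -0.61 to 6 d (adjusted p = 1.7e-05). At 9 d it stood 0.26 above 0 d (adjusted p = 0.00675 by limma). The 3 d libraries were apart from all others, and those of 0 d and 6 d overlapped.

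UQCRC1 and UQCRC2, the large core proteins on the matrix side, were lower at 3 d and 9 d. UQCRC1 read 957, 895 and 1038 FPKM at 0 d, 731, 846 and 818 at 3 d, 917, 982 and 1014 at 6 d, then 786, 791 and 805 at 9 d. Its log2 fold changes against 0 d were -0.27, 0.01 and -0.28, with adjusted p of 0.00827, 0.911 and 0.0112 by limma. Libraries of 0 d and 6 d overlapped and lay above those of 3 d and 9 d as deposited, but by the median ratio those of 0 d overlapped with both, and the value at 9 d became -0.10 by the median ratio and did not pass. UQCRC1 fell from 6 d to 9 d by 0.29 (adjusted p = 0.0157 by limma), which did not pass without replicate 2 of 6 d (-0.28) or replicate 3 of 6 d (-0.26). UQCRC2 fell by 0.41 at 3 d (adjusted p = 6.9e-05 by limma), from 70.8, 66.2 and 72.1 to 50.9, 53.2 and 53.2 FPKM, with the days apart. This member was 1 of the 9 that were lower at 9 d under all 3 scalings.

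UQCR11, a small subunit of the complex, was at 7.91, 6.94 and 8.91 FPKM at 0 d, 4.54, 5.31 and 4.59 at 3 d, 7.63, 6.85 and 7.18 at 6 d, then 5.96, 6.40 and 5.67 at 9 d. It fell by 0.70 at 3 d (adjusted p = 2.7e-04 by limma) and rose by 0.58 to 6 d (adjusted p = 0.00118). All 3 d libraries lay below all others, although they overlapped with 9 d by equal sums. At 9 d it was at -0.39 against 0 d, which did not pass by the median ratio (-0.21) or without replicate 3 of 0 d (-0.30) or replicate 3 of 9 d (-0.35). UQCRB, which helps form the ubiquinone site, went from 55.8, 52.9 and 52.2 FPKM at 0 d to 42.1, 32.7 and 37.6 at 9 d, a fall of -0.52 (adjusted p = 0.00497 by limma). Its 9 d libraries were below all 0 d libraries. At 6 d its value of -0.33 had an adjusted p of 0.0486 by limma, and rescaling of either kind or leaving out any of 8 libraries ended it, with values from -0.26 to -0.38 on leaving out a library, as did a constant of 0.01 or no minimum level.

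Complex IV, cytochrome c oxidase, had 3 members higher and 6 lower of 15 at 3 d (40.0% lower; 3 and 5 under either rescaling), with a median of -0.20 (-0.11 by the median ratio, -0.13 by equal sums). From 3 d to 6 d 5 rose and 1 fell (2 fell without replicate 1 of 0 d and 2 by equal sums), and at 9 d 2 were higher and 4 lower than at 0 d, or 3 and 2 by the median ratio. Complex IV at 6 d had 2 higher and 5 lower than at 0 d (13.3% and 33.3%, beside 10.0% and 24.8% of all genes). By the median ratio these were 3 and 3, and by equal sums 3 and 5. The 5 became 3 without replicate 2 or 3 of 0 d or of 6 d, and 3 were higher without replicate 3 of 0 d. Of the pair NDUFA4 and NDUFA4L2, NDUFA4 is a subunit once assigned to complex I, and NDUFA4L2 is its paralogue, known as a target of hypoxia-inducible factor 1. NDUFA4L2 read 0.980, 1.11 and 1.03 FPKM at 0 d, 11.4, 11.8 and 14.0 at 3 d, 12.8, 15.1 and 13.6 at 6 d, then 11.4, 9.93 and 10.6 at 9 d. It rose by 3.45 at 3 d (95% interval 3.22 to 3.68, adjusted p = 1.9e-09 by limma), 3.61 at 6 d (adjusted p = 7.7e-09) and 3.23 at 9 d (adjusted p = 1.8e-08). Every induced library was above every 0 d library. Its decline from 6 d to 9 d (-0.38, adjusted p = 0.0265 by limma) did not pass without replicate 2 of 6 d (-0.31), replicate 3 of 6 d (-0.39), replicate 2 of 9 d (-0.33) or replicate 3 of 9 d (-0.37).

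NDUFA4 moved the opposite way, at 43.5, 49.7 and 57.1 FPKM at 0 d, 36.0, 37.0 and 39.0 at 3 d, 35.5, 30.9 and 38.0 at 6 d, then 35.1, 31.2 and 34.4 at 9 d. The log2 fold changes were -0.41, -0.52 and -0.57 against 0 d, with adjusted p of 0.00849, 0.00393 and 0.00228 by limma. All 0 d libraries were above all later ones. Per length, the mean level of NDUFA4 was 50.1 FPKM beside 1.04 for NDUFA4L2 at 0 d, and 34.8 beside 13.8 at 6 d.

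Among the muscle isoforms of complex IV, COX6A2 was detected unevenly. It read 1.71, 5.84 and 4.53 FPKM at 0 d, 0, 0.850 and 0 at 3 d, 3.33, 1.82 and 3.87 at 6 d, then 2.09, 1.99 and 2.16 at 9 d. The fitted log2 fold change at 3 d was -4.12 (adjusted p = 0.00153 by limma), and from 3 d to 6 d it was 3.81 (adjusted p = 0.00282). Since 2 libraries of 3 d are at 0, its size depends on the added constant, and with 1 in place of 0.1 the first was -1.93. The 3 d libraries lay below all others, and the other days overlapped. COX6A1, the isoform of other tissues, read 22.8, 22.1 and 26.3 FPKM at 0 d and 20.7, 24.0 and 21.6 at 3 d, and rose by 0.36 to 6 d (adjusted p = 0.0125 by limma). COX7A1, the muscle isoform of subunit 7A, read 1.23, 2.38 and 2.31 FPKM at 0 d, 1.55, 1.87 and 1.34 at 3 d, 1.11, 0.970 and 0.920 at 6 d and 1.53 ± 0.335 (mean ± SD) at 9 d. Its value of -0.86 at 6 d (adjusted p = 0.0215 by limma) did not pass without replicate 2 of 0 d (-0.71), replicate 3 of 0 d (-0.73), replicate 2 of 6 d (-0.85) or replicate 3 of 6 d (-0.81), nor in the fit of only the 6 libraries compared. COX7A2, the widespread isoform, passed in none of the 5 comparisons by limma and read 7.97, 6.62 and 6.65 FPKM at 0 d and 7.91, 6.13 and 6.66 at 9 d.

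The other named members of complex IV included both directions. COX8A, the most abundant, was at 59.6, 60.0 and 64.3 FPKM at 0 d, 75.4, 77.2 and 71.8 at 3 d, 73.2, 67.7 and 78.7 at 6 d, then 72.8, 74.6 and 74.2 at 9 d. It rose by 0.29, 0.25 and 0.27 against 0 d (adjusted p = 0.00334, 0.011 and 0.00769 by limma), of which the value at 6 d did not pass in the fit of only the 6 libraries compared. Every 0 d library was below every later one. COX7B, a small subunit, was at 6.56, 7.04 and 6.60 FPKM at 0 d, 9.33, 8.92 and 8.68 at 3 d, 5.64, 5.86 and 5.29 at 6 d, then 5.92, 5.59 and 5.78 at 9 d. It rose by 0.41 at 3 d (adjusted p = 5.1e-04 by limma) and fell by 0.67 to 6 d (adjusted p = 1.9e-05). Its 3 d libraries stood above all others. Against 0 d COX7B was at -0.26 at 6 d and -0.22 at 9 d, which did not pass by the median ratio (-0.12 and -0.04) or in the fit of only the 6 libraries compared, and the latter did not pass without replicate 2 of 0 d (-0.19), replicate 2 of 9 d (-0.20) or replicate 3 of 9 d (-0.22).

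COX4I1, the common isoform of the largest nuclear-encoded subunit, was at 49.5, 47.8 and 56.8 FPKM at 0 d, 25.7, 42.8 and 31.0 at 3 d, 43.5, 46.4 and 46.7 at 6 d, then 46.3, 45.6 and 47.0 at 9 d. It fell by 0.66 at 3 d (adjusted p = 0.00444 by limma). The 3 d libraries lay below all others and differed among themselves. The return to 6 d (0.49, adjusted p = 0.0228 by limma) did not pass without replicate 1 of 3 d (0.32), replicate 3 of 3 d (0.46), replicate 2 of 6 d (0.47) or replicate 3 of 6 d (0.47), nor in the fit of only the 6 libraries compared. COX6B1, which sits on the side of cytochrome c, passed in none of the comparisons by limma, at 10.7, 11.0 and 12.9 FPKM at 0 d and 9.63, 10.8 and 10.1 at 3 d. The alternative isoforms COX4I2, COX6B2 and COX8B were near 0, as given above.

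Complex V, the ATP synthase, had 1 member higher and 8 lower of 18 at 3 d (5.56% and 44.4%, beside 21.7% and 30.5% of all genes). Its median was -0.25 (-0.16 by the median ratio, -0.18 by equal sums). The 8 became 5 without replicate 3 of 0 d, 5 by the median ratio and 7 by equal sums, and the 1 became 0 by limma without replicate 1 of 0 d, replicate 2 of 0 d or replicate 2 of 3 d. From 3 d to 6 d 7 rose and 1 fell (38.9% and 5.56%, beside 22.4% and 27.1% of all genes), or 9 and 1 by the median ratio and 6 and 1 by equal sums. The 7 became 1 without replicate 1 of 3 d, 4 without replicate 3 of 3 d, 2 without replicate 2 of 6 d and 0 without replicate 3 of 6 d, where 2 fell without replicate 1 of 6 d. Complex V at 6 d had 0 higher by limma and 4 lower than at 0 d, where 6 had an unadjusted p under 0.05. The 4 are 22.2%, beside 10.0% higher and 24.8% lower among all genes. By the median ratio this split was 2 and 0. The 4 became 1 without replicate 1 of 0 d and 2 without replicate 3 of 0 d or replicate 1 or 2 of 6 d. At 9 d 0 were higher by limma and 6 lower than at 0 d (7 with an unadjusted p under 0.05). The 6 are 33.3%, beside 9.70% higher and 27.2% lower among all genes. The split was 1 and 2 by the median ratio and 0 and 7 by equal sums, and the 6 became 3 without replicate 1 of 0 d and 3 without replicate 3 of 0 d. ATP5F1B, the catalytic beta subunit, read 251, 232 and 271 FPKM at 0 d, 245, 260.0 and 256 at 3 d, 209, 219 and 226 at 6 d, then 167, 174 and 176 at 9 d. At 9 d it fell by 0.54 against 0 d (95% interval -0.68 to -0.40, adjusted p = 9.7e-05 by limma) and by 0.33 against 6 d (adjusted p = 0.00365). The 9 d libraries were below all others, and those of 0 d and 3 d overlapped. Its value at 6 d against 0 d (-0.20, adjusted p = 0.0274 by limma) became -0.06 by the median ratio, and it did not pass without replicate 1 of 0 d (-0.20), replicate 3 of 0 d (-0.15), replicate 1 of 6 d (-0.17) or replicate 2 of 6 d (-0.21), nor in the fit of only the 6 libraries compared.

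ATP5S, also called coupling factor B, declined from 4.15, 3.76 and 3.50 FPKM at 0 d over 3.60, 3.37 and 3.03 at 3 d and 3.13, 2.53 and 2.69 at 6 d to 1.94, 2.29 and 1.92 at 9 d. It fell by 0.86 at 9 d (adjusted p = 2.7e-04 by limma). The 9 d libraries were below all others. At 6 d against 0 d its -0.44 did not pass by the median ratio (-0.30) or without replicate 1 of 0 d (-0.38) or replicate 2 of 6 d (-0.38). From 6 d to 9 d its -0.42 did not pass without replicate 1 of 6 d (-0.34), replicate 3 of 6 d (-0.44), replicate 1 of 9 d (-0.39) or replicate 3 of 9 d (-0.38), nor in the fit of only the 6 libraries compared. ATP5PF, coupling factor 6 in the stalk, fell at 3 d by 0.56 (adjusted p = 0.00143 by limma), from 7.53, 7.21 and 8.68 to 4.64, 5.94 and 5.29 FPKM. The 3 d values lay below all 0 d values. ATP5PF rose by 0.36 to 6 d, which did not pass without replicate 1 of 3 d (0.27) or replicate 3 of 6 d (0.34).

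ATP5F1C, the gamma subunit of the central stalk, was the member of complex V counted as higher at 3 d, at 19.8, 19.3 and 20.8 FPKM at 0 d and 23.0, 23.3 and 22.0 at 3 d. The rise of 0.19 (adjusted p = 0.0176 by limma) did not pass without replicate 1 of 0 d (0.18), replicate 2 of 0 d (0.17) or replicate 2 of 3 d (0.17), nor in the fit of only the 6 libraries compared. ATP5PD, subunit d of the stalk, read 21.9, 26.6 and 22.2 FPKM at 3 d and 31.3, 31.4 and 31.7 at 6 d. Its 0.42 between them (adjusted p = 0.0303 by limma) did not pass without any 1 of replicates 1 and 3 of 3 d (0.37 and 0.38) and replicates 1, 2 and 3 of 6 d (0.43, 0.42 and 0.42). ATP5IF1, the inhibitor of ATP hydrolysis, read 2.36, 0.730 and 1.13 FPKM at 3 d and 2.09, 3.33 and 2.84 at 6 d. These groups overlapped, and the call (1.05, adjusted p = 0.0309 by limma) was lost without replicate 2 of 3 d (0.69), replicate 3 of 3 d (0.97), replicate 2 of 6 d (0.90) or replicate 3 of 6 d (1.01), with a replicate block and in the fit of only the 6 libraries compared.

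ATP5MC1, ATP5MC2 and ATP5MC3 encode the same mature c subunit of the membrane ring. ATP5MC3 was the most abundant at 275, 235 and 306 FPKM at 0 d, 253, 246 and 261 at 3 d, 266, 271 and 305 at 6 d, then 232, 262 and 229.9 at 9 d, and passed in none of the 5 comparisons by limma. ATP5MC2 fell at 3 d by 0.29 (adjusted p = 0.011 by limma), from 26.9, 27.4 and 24.0 to 20.6, 22.7 and 20.9 FPKM, with the days apart. ATP5MC1 was at 15.2, 21.1 and 17.0 FPKM at 6 d, then 13.5, 10.2 and 12.6 at 9 d. Its -0.55 between them had an adjusted p of 0.0442 by limma that did not pass by the median ratio (-0.51) or without any 1 of 9 libraries, where the values ran from -0.63 to -0.42, nor with a replicate block, with no minimum level or in the fit of only the 6 libraries compared. ATP5F1E read 1.06, 1.29 and 1.65 FPKM at 0 d and 0.700, 1.06 and 0.790 at 3 d, with overlap. Its daily mean was under the minimum level at 3 d, so that its selection as a member favours a fall on this day. Its -0.59 (adjusted p = 0.0288 by limma) did not pass by the median ratio (-0.50) or in the fit of only the 6 libraries compared. Nor did it pass without replicate 2 of 0 d (-0.60), replicate 3 of 0 d (-0.44), replicate 1 of 3 d (-0.48) or replicate 3 of 3 d (-0.55).

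Further gene lists are set beside the shares of all genes tested, of which against 0 d 21.7% were higher on day 3, 10.0% on day 6 and 9.70% on day 9, while 30.5%, 24.8% and 27.2% were lower. Between 3 d and 6 d 22.4% rose and 27.1% fell. No difference between a list and the subunits or all genes was tested. Of 42 assembly factors listed (47 sought) 13 were higher and 7 lower at 3 d (31.0% and 16.7%; 16 and 6 under either rescaling), with a median of 0.12 (0.21 by the median ratio, 0.19 by equal sums). Between 3 d and 6 d 2 rose and 15 fell (4.76% and 35.7%; 4 and 14 by the median ratio), whereas more subunits were lower at 3 d and more rose to 6 d. The 7 became 4 without replicate 3 of 3 d. At 6 d and 9 d against 0 d, 3 and 1 were higher and 4 and 6 lower, which by the median ratio became 9 and 9 higher and 1 and 4 lower, and by equal sums 7 were lower at 9 d. The 4 lower at 6 d became 2 without replicate 1 of 0 d, replicate 3 of 0 d or replicate 1 of 6 d. The 1 higher at 9 d became 3 without replicate 3 of 0 d and 2 without replicate 2 of 0 d, replicate 2 of 6 d, replicate 3 of 6 d or replicate 2 of 9 d. ACAD9, needed to assemble complex I, rose from 14.8, 11.3 and 13.2 FPKM to 35.3, 38.1 and 35.2 at 3 d (log2 fold change 1.47, adjusted p = 4.9e-06 by limma). SDHAF1, which helps insert the iron-sulfur clusters of SDHB, rose by 1.29 at 3 d (adjusted p = 2.9e-04 by limma), from 3.15, 2.29 and 2.08 to 5.92, 5.97 and 6.66 FPKM, while SDHB itself fell. SCO1, a copper chaperone of complex IV, fell at 6 d by 0.68 (adjusted p = 2.9e-05 by limma). NUBPL, an assembly factor of complex I and the most abundant of the list, shares its table entry with ARHGAP5. The entry was at 1365, 1721 and 1187 FPKM at 0 d and 814, 759 and 807 at 3 d, and its -0.83 (adjusted p = 0.0231 by limma) did not pass without replicate 2 of 0 d (-0.68), replicate 2 of 3 d (-0.80) or replicate 3 of 3 d (-0.84). NDUFAF2, an assembly factor of complex I, was at 0.260, 0.350 and 0.510 FPKM at 0 d and 0, 0.140 and 0.0900 at 9 d, levels at which the added constant sets much of a fold change.

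Mitochondrial ribosomal proteins, which translate the subunits encoded by mitochondrial DNA, numbered 72. At 3 d 7 were higher and 16 lower (9.72% and 22.2%, both below the 21.7% and 30.5% of all genes), or 12 and 14 by the median ratio and 11 and 15 by equal sums. The median of -0.045 became 0.04 by the median ratio and 0.019 by equal sums. From 3 d to 6 d 19 rose and 12 fell (26.4% and 16.7%, beside 22.4% and 27.1% of all genes), or 24 and 7 by the median ratio and 17 and 15 by equal sums. Against 0 d, 5 were higher and 9 lower at 6 d (14 and 3 by the median ratio, 6 and 10 by equal sums), and 2 and 14 at 9 d (6 and 7 by the median ratio, 1 and 17 by equal sums). The 5 became 2 without replicate 1 of 0 d and 3 without any 1 of 8 further libraries. The 9 became 5 without replicate 3 of 0 d and 5 without replicate 2 of 6 d, and the 2 became 1 without replicate 1 of 0 d and 1 without replicate 3 of 9 d. MRPS30 rose from 3.25, 2.46 and 3.78 to 13.5, 13.6 and 14.1 FPKM at 3 d (2.103, adjusted p = 6.7e-07 by limma), and MRPL54 fell from 4.12, 4.33 and 4.86 to 1.37, 1.08 and 1.36 FPKM (-1.73, adjusted p = 5.4e-07). MRPL54 stayed lower at 6 d (-0.56) and 9 d (-0.98). MRPL45 was higher at 9 d by 0.44 (adjusted p = 0.0031 by limma).

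Electron carriers and the enzymes of ubiquinone synthesis (15 listed of 17 sought) had 4 higher and 2 lower at 3 d, then 1 against 1 on day 6 and 0 against 3 on day 9, with medians of 0.01, 0.08 and -0.20, or 0.10, 0.23 and -0.02 by the median ratio and 0.07, 0.09 and -0.25 by equal sums. By the median ratio these counts were 5 and 2, 4 and 1, and 0 and 1, and by equal sums 5 and 2, 1 and 2, and 0 and 5. The deposited counts are 26.7% and 13.3% of the list at 3 d and 6.67% and 6.67% on day 6, and the 3 of 15 on day 9 are a smaller share than the 27.2% among all genes. The 1 higher on day 6 became 0 without replicate 1 of 0 d, replicate 2 of 0 d, replicate 1 of 6 d or replicate 3 of 6 d. The 1 lower became 2 without replicate 2 of 9 d. The 3 lower on day 9 became 1 without replicate 1 of 0 d, replicate 3 of 0 d, replicate 3 of 3 d, replicate 2 of 6 d or replicate 1 of 9 d, and 5 without replicate 2 of 0 d. CYCS, the mobile carrier cytochrome c between complexes III and IV, passed in none of the comparisons by limma, at 8.96, 7.77 and 9.26 FPKM at 0 d and 7.22, 9.45 and 6.82 at 9 d. COQ6, a ring-modifying enzyme of ubiquinone synthesis, rose at 3 d by 0.87 (adjusted p = 1.0e-05 by limma), and COQ10A, which binds ubiquinone, fell at 9 d by 0.82 (adjusted p = 9.9e-05).

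Enzymes of the citrate cycle and pyruvate entry (18 listed of 19) had 2 higher and 7 lower at 3 d, then 1 against 1 on day 6 and 2 against 8 on day 9, and from 3 d to 6 d 8 rose and 1 fell. As shares these are 11.1% and 38.9%, 5.56% and 5.56%, 11.1% and 44.4%, and 44.4% and 5.56%. The medians against 0 d were -0.13, -0.02 and -0.25, which became -0.03, 0.12 and -0.07 by the median ratio and -0.06, -0.02 and -0.30 by equal sums. Splits by the median ratio were 3 and 7, 5 and 0, and 3 and 3, with 10 and 1 from 3 d to 6 d. By equal sums they were 3 and 7, 2 and 1, and 2 and 12, with 5 and 3 from 3 d to 6 d. The 8 that rose became 5 without replicate 2 of 6 d and 4 without replicate 3 of 6 d, when 2 fell. The 8 lower at 9 d became 5 without replicate 1 of 9 d. On day 6 the 1 higher became 2 without replicate 1 of 6 d, and the 1 lower became 0 without replicate 1 of 0 d, replicate 3 of 0 d, replicate 1 of 6 d or replicate 3 of 6 d and 2 without replicate 2 of 0 d or replicate 2 of 6 d. CS, citrate synthase, read 32.3, 30.0 and 32.8 FPKM at 0 d, 21.4, 24.6 and 22.9 at 3 d, 33.4, 35.5 and 35.8 at 6 d, then 24.3, 23.1 and 25.6 at 9 d. Its fall of -0.46 at 3 d (adjusted p = 3.0e-04 by limma) and return of 0.60 to 6 d (adjusted p = 5.9e-05) ran in the same direction as those of SDHA. SUCLA2, of succinyl-CoA synthetase, rose at 3 d by 1.27 (adjusted p = 7.5e-08 by limma), and DLST, of the oxoglutarate dehydrogenase complex, fell by 0.88 (adjusted p = 6.5e-07). IDH3B, of isocitrate dehydrogenase, fell at 9 d by 0.58 (adjusted p = 8.4e-04 by limma).

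Among 17 regulators of mitochondrial biogenesis, 16 of them tested, 3 were higher and 1 lower at 3 d, then 0 against 3 on day 6 and 0 against 1 on day 9 by limma, with 5, 4 and 3 at an unadjusted p under 0.05. By the median ratio the splits were 5 and 0, 2 and 2, and 0 and 0, and by equal sums 5 and 0, 0 and 3, and 0 and 2. The 1 lower at 3 d became 2 without replicate 1 of 0 d and 0 without replicate 2 of 0 d or replicate 2 of 3 d, and at 9 d 1 was higher without replicate 3 of 9 d and 2 were lower without replicate 2 of 9 d. PPARGC1A, a coactivator of the genes of oxidative metabolism, read 0.890, 0.820 and 0.700 FPKM at 0 d, 1.55, 1.68 and 1.44 at 3 d, 0.470, 0.380 and 0.380 at 6 d, then 0.670, 0.840 and 0.820 at 9 d. It rose by 0.88 at 3 d (adjusted p = 2.3e-04 by limma), when most changed subunits were lower, and at 6 d was -0.82 against 0 d (adjusted p = 7.1e-04). Its 3 d libraries were above all others. TFAM, which packages and transcribes mitochondrial DNA, was at 1.14, 0.780 and 0.950 FPKM at 0 d and 9.34, 1.47 and 2.34 at 3 d, and did not pass. NRF1 (0.09 at 3 d), ESRRA (0.36) and PPARGC1B (0.23), further regulators, did not pass either. TFB1M, of mitochondrial ribosome maturation, was lower at 3 d (-0.46), 6 d (-0.48) and 9 d (-0.59) as deposited, and passed on none of these days by the median ratio (-0.36, -0.34 and -0.41). Single libraries also decided for TFB1M, at 3 d replicate 2 of 0 d (-0.40) and replicate 2 of 3 d (-0.32), and at 6 d replicate 1 of 0 d (-0.49), replicate 2 of 0 d (-0.42) and replicate 1 of 6 d (-0.43).

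Carriers of the inner and outer mitochondrial membrane (10 listed, 8 tested) had 0 higher and 5 lower at 3 d, then 1 against 3 on day 6 and 0 against 3 on day 9 by limma, or 0 and 2, 1 and 2, and 2 and 3 by the median ratio and 0 and 2, 1 and 3, and 0 and 3 by equal sums, with 5, 4 and 3 at an unadjusted p under 0.05. The lower counts are 62.5%, 37.5% and 37.5% of the 8, and 1 was higher at 9 d without replicate 3 of 0 d. SLC25A4, the ADP/ATP carrier of muscle, fell at 3 d by 0.48 (adjusted p = 0.00344 by limma), and VDAC2, an outer membrane channel, rose at 6 d by 0.35 (adjusted p = 0.00192). UCP2, an uncoupling protein relative, fell from 9.33, 8.38 and 8.85 FPKM at 0 d to 2.88, 3.44 and 3.10 at 9 d (-1.47, adjusted p = 2.1e-06 by limma). UCP1, which uncouples respiration in brown fat, had daily means of 0.0233 FPKM or less, and UCP3 is listed at 0.

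Most hypoxia response genes were higher on the induced days than at 0 d, as NDUFA4L2 was. Of 9 listed (10 sought) 6 were higher and 0 lower at 3 d by limma (7 with an unadjusted p under 0.05), 7 and 1 at 6 d, and 8 and 1 at 9 d, with medians of 0.69, 0.96 and 1.44. Both rescalings gave the same higher counts, and the median ratio gave 0 lower on each day. At 3 d 2 were lower without replicate 1 of 0 d, and 1 without replicate 1 of 6 d, replicate 3 of 6 d or replicate 2 of 9 d. Between 6 d and 9 d 4 rose and 0 fell by limma (4 with an unadjusted p under 0.05), whereas NDUFA4L2 was lower at 9 d (-0.38, which did not pass without any 1 of 4 libraries). Their summed level was 550.2, 543 and 569.7 FPKM at 0 d, 887, 846 and 881 at 3 d, 1018, 1070.2 and 1009 at 6 d, then 1239, 1262 and 1194 at 9 d, and each day lay above the day before in every library. LDHA, lactate dehydrogenase, was the most abundant at 368, 683, 677 and 731 FPKM on average, and 0 of the 9 genes were at 0 throughout. CA9, a carbonic anhydrase, rose from 1.17, 0.990 and 1.22 FPKM to 59.4, 68.6 and 57.9 at 6 d (5.66, adjusted p = 9.5e-09 by limma), whereas KDM3A, a histone demethylase, was lower at 6 d (-0.40) and 9 d (-0.43) as deposited but not by the median ratio. The value of KDM3A at 6 d also did not pass without replicate 1 of 0 d (-0.40), replicate 2 of 0 d (-0.31) or replicate 2 of 6 d (-0.33). Oxygen was not measured, and the part of hypoxia in the values of NDUFA4L2 was not tested.

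Adipocyte markers (13) had 11 higher and 1 lower at 3 d, then 9 against 1 on day 6 and 8 against 2 on day 9, with medians of 1.198, 1.14 and 1.42. The last splits were 10 and 0 at 6 d and 9 and 1 at 9 d by the median ratio, and by equal sums 7 and 3 at 9 d. The 2 lower at 9 d became 1 without replicate 2 of 0 d, replicate 3 of 0 d or replicate 2 of 9 d. They summed to 56.3, 64.2 and 64.7 FPKM at 0 d, 207, 209 and 216 at 3 d, 104, 113 and 117 at 6 d, then 112, 94.5 and 114 at 9 d, so that their peak fell on 3 d, the day on which 41 of 79 members were lowest as deposited. PLIN1, which coats lipid droplets, was the most abundant, and 0 of the 13 were at 0 throughout. DGAT2, which makes triglycerides, rose at 3 d by 7.12 (adjusted p = 3.4e-08 by limma) from near 0 to 20.3, 22.1 and 23.1 FPKM. LEP, leptin, fell at 3 d by 4.06 (adjusted p = 1.5e-05 by limma), and PPARG, the regulator of fat cell formation, fell at 9 d by 0.53 (adjusted p = 6.9e-04). LPL, lipoprotein lipase, was -0.57 at 6 d, which did not pass by the median ratio (-0.42) or without replicate 3 of 0 d (-0.54) or replicate 1 of 6 d (-0.51). Preadipocyte and fibroblast markers (7 listed, 6 tested) had 5 higher and 1 lower at 3 d, then 3 against 1 on day 6 and 6 against 0 on day 9 by limma (6 with an unadjusted p under 0.05). At 6 d 5 were higher and 0 lower by the median ratio, and by equal sums 5 were higher at 9 d. The 1 lower at 6 d became 0 without replicate 1 of 0 d, replicate 3 of 0 d, replicate 2 of 6 d or replicate 3 of 6 d. PDGFRA rose at 3 d by 2.54, COL1A1 fell by 1.68, LUM rose at 6 d by 1.69 and DCN at 9 d by 2.16. COL3A1 was the most abundant at 105843, 126606, 96303 and 170827 FPKM on average, a large part of the summed FPKM of a library. DLK1, a preadipocyte marker, was near 0 with daily means up to 0.0767 FPKM.

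Skeletal muscle markers were mostly lower on the induced days than at 0 d. Of 12 listed (14 sought) 0 were higher and 9 lower at 3 d by limma (9 with an unadjusted p under 0.05), and 0 and 12 at both 6 d and 9 d, with medians of -1.47, -1.89 and -1.67 (11 lower at 6 d by the median ratio). Between 3 d and 6 d 5 rose and 7 fell, with a median of -0.39. They summed to 5791, 8543 and 4389.6 FPKM at 0 d, 4829.9, 3115 and 3469.9 at 3 d, 2314, 1825 and 1712 at 6 d, then 1882, 1532 and 1603 at 9 d. TTN, titin, was the most abundant at 4984 FPKM on average at 0 d, and 0 of the 12 were at 0 throughout. CKM, muscle creatine kinase, read 132, 136 and 130.3 FPKM at 0 d, 2.51, 5.05 and 2.28 at 3 d, 19.2, 10.9 and 10.1 at 6 d, then 29.1, 23.2 and 27.7 at 9 d, and was 1 of the 5 that rose from 3 d to 6 d, while the sum of the list was lowest on average at 9 d. Its log2 fold changes against 0 d were -5.39, -3.36 and -2.32 (adjusted p = 2.0e-07, 1.6e-05 and 2.3e-04 by limma). Muscle is rich in respiratory chain subunits, and the part of these markers in the values of the members was not tested.

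Of 9 endothelial and mural markers 4 were tested, with 0 higher and 2 lower at 3 d, then 0 against 1 on day 6 and 0 against 2 on day 9 by limma (3, 1 and 2 with an unadjusted p under 0.05), and 1 was higher at 3 d without replicate 2 of 9 d. They summed to 1867, 1895 and 2008 FPKM at 0 d, 97.2, 99.1 and 87.0 at 3 d, 1594, 1709 and 1695 at 6 d, then 717, 653 and 740.1 at 9 d. ACTA2, smooth muscle actin, was the most abundant and fell at 3 d by 5.98 (adjusted p = 7.2e-12 by limma), and CSPG4 fell at 6 d by 2.09 (adjusted p = 4.3e-07). The endothelial markers PECAM1, CDH5 and KDR had daily means of at most 0.0167, 0.107 and 0.0133 FPKM. Of 12 blood and immune markers 4 were tested, where limma counted 2 as higher at 3 d, 2 at 6 d and 1 at 9 d, and 0 as lower on any day (2, 2 and 1 with an unadjusted p under 0.05). The 2 at 6 d became 1 without any 1 of the 8 libraries other than replicate 3 of 0 d and those of 3 d. They summed to 1.47, 1.26 and 1.75 FPKM at 0 d, 3.82, 5.85 and 6.39 at 3 d, 4.20, 4.09 and 3.92 at 6 d, then 2.86, 3.47 and 2.36 at 9 d, with PTPRC and HBB at 0 in all libraries and CD14 the most abundant. CD14 rose at 3 d by 1.71 (adjusted p = 2.7e-05 by limma), and HBA1 read 0, 0 and 0.600 FPKM at 0 d and 2.24, 2.16 and 1.88 at 6 d. Proliferation markers (10) had 4 higher and 0 lower at 3 d, then 0 against 0 on day 6 and 1 against 3 on day 9 by limma (5, 2 and 6 with an unadjusted p under 0.05). By the median ratio the splits were 5 and 0, 2 and 0, and 2 and 3, and by equal sums 5 and 0, 0 and 0, and 1 and 4. At 6 d 1 was higher without replicate 1 of 3 d or replicate 1 of 6 d and 1 was lower without replicate 1 of 3 d. The 1 higher at 9 d became 2 without replicate 1 of 0 d, replicate 1 of 3 d, replicate 1 of 6 d or replicate 2 of 6 d. They summed to 114, 95.5 and 97.9 FPKM at 0 d, 128, 127 and 151 at 3 d, 97.4, 99.5 and 98.2 at 6 d, then 81.3, 85.1 and 87.2 at 9 d, with AURKB the most abundant. TOP2A rose at 3 d by 0.90, PCNA was 0.45 higher at 9 d and AURKB fell at 9 d by 0.79. The entries of PLIN1, PPARG, TTN and COQ10A join the name with that of a further gene. The part of any of these markers in the values of the members was not tested.

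Circular RNAs from the members' genes were scarce. Of 14070 circRNAs 13 came from 8 host genes among the members, and they held 28 of 95674 back-spliced reads over the 12 libraries. The highest value was 5 reads, of an NDUFS1 circRNA in 1 library of 9 d. The libraries held 0, 1 and 2 of these reads at 0 d, 2, 1 and 3 at 3 d, 2, 4 and 1 at 6 d, then 1, 4 and 7 at 9 d. Differences between days were not tested at these counts. The members make up 0.697% of the genes at or above the minimum level.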

How the data were processed

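The FPKM of the mRNA table are deposited values computed by the authors from rRNA-depleted or poly(A)-selected RNA, since methods and labels differ on this. Back-spliced read counts of circRNAs and the SRPBM signal (back-spliced reads scaled to library size) are deposited values of the authors too, the signal used only to read library size. The submitters' notes name Bowtie 0.12.2, HISAT2 2.0 and StringTie 1.3.0, with build mm8 in the labels and ARS-UCD1.2 in the methods; the authors tested with edgeR. Here log2(FPKM + 0.1) of genes with a mean of at least 0.1 FPKM was fitted with limma 3.58.1 in R 4.3.3, 1 mean per day, moderated t-tests and Benjamini-Hochberg adjustment in each of the 5 comparisons. Tables and figures used Python 3.11.15, NumPy 2.4.6, pandas 2.3.3, SciPy 1.17.1 and Matplotlib 3.10.9. The pipeline was tested on simulated data with changed genes of known size.

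Alternatives were constants of 1 and 0.01, no minimum level, a minimum of 1 FPKM, rescaling by the median ratio or to equal sums, a fit restricted to the 6 libraries of a comparison, a replicate block, and leaving out each library. Members and lists were chosen with earlier results of these data known. The lists were the subunits encoded by mitochondrial DNA, assembly factors, electron carriers, biogenesis regulators, citrate cycle enzymes, membrane carriers, mitochondrial ribosomal proteins, and markers of hypoxia, adipocytes, preadipocytes, muscle, proliferation, blood and endothelial or mural cells. Named genes are the largest rise and fall per complex and comparison with an adjusted p under 0.05 and libraries apart, called members, the most abundant members of complexes II to V, SDHA to SDHD, paired isoforms, members nearest the minimum, and in each list the largest rise and fall against 0 d together with PPARGC1A, PPARGC1B, TFAM, NRF1, ESRRA, CYCS, CS, UCP1 and UCP2. A few further members are named for their role, and not every member that fits these rules is described.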

Additional observations from a re-analysis of the deposited data

How the results depend on the processing

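Across the alternatives the counts of members under an adjusted p of 0.05 by limma depended on scaling and on single libraries. Leaving out 1 library gave 30 to 43 members for 3 d, 13 to 18 for 6 d and 23 to 34 for 9 d, each against 0 d, then 24 to 35 from 3 d to 6 d and 6 to 12 from 6 d to 9 d, where 8, 6, 7, 8 and 7 were left without replicate 2 or 3 of 6 d and replicate 1, 2 or 3 of 9 d. Called members ranged over 3 to 4, 1 to 2, 1 to 1, 1 to 3 and 0 to 0 in these comparisons, with 2 at 6 d without replicate 1 of 0 d, and from 3 d to 6 d 1 without replicate 3 of 3 d, 1 without replicate 3 of 6 d and 1 with a constant of 1. Medians ranged from -0.26 to -0.18, -0.11 to -0.03, -0.22 to -0.13, 0.12 to 0.18 and -0.12 to -0.07. Rescaled by the median ratio, the median was 0.0694 at 6 d, -0.0013 at 9 d and 0.20 from 3 d to 6 d, and 16 members passed at 9 d; rescaled to equal sums it was 0.0802 from 3 d to 6 d and -0.16 from 6 d to 9 d. A replicate block gave 41, 17, 30, 33 and 10 members, and a fit of only the 6 libraries compared 32, 13, 29, 30 and 9, each with 2 calls from 3 d to 6 d. Correlations of 18 pairs of libraries with the same replicate number ran from -0.0984 to 0.1113, with a median of 0.0217. The median of the 36 other pairs was -0.01125. These values cannot tell whether samples of the same number came from the same culture or animal. COL3A1 at 6 d against 0 d reversed from -0.14 to 0.0113 by the median ratio. Of 75 tested results of members that fit the naming rules 0 reversed and 27 lost the threshold in at least 1 alternative, 13 of them by the median ratio, 13 in the fit of 6 libraries, 3 with the block, 1 by equal sums and 22 without at least 1 library, where a result can count under several. The cause was not tested.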
